A study of Mus musculus with 49 samples.

Results

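Transcript levels in chemically induced liver progenitors (CLiPs, n = 3 libraries) were compared with those in hepatocytes kept for 2 weeks in plain monolayer culture (n = 3) over all genes, using 6 of the 49 libraries that the deposited count table holds. The question was what the small-molecule protocol changes relative to an ordinary culture of the same starting cell. Both groups are labelled as wild-type C57BL/6J mouse hepatocytes grown as monolayers, and the study's methods give male mice of 10 weeks as the source. The 2-week hepatocytes were plated on type I collagen in a standard medium with epidermal growth factor (EGF). CLiPs were made by a published serum-free protocol with Y-27632, an inhibitor of the kinase ROCK, A-83-01, an inhibitor of the TGF-β type I receptor, and CHIR99021, an inhibitor of the kinase GSK3. According to the study's text they were kept for a couple of months before they had multiplied enough. The labels give no culture time, passage or concentration for CLiPs, and no library holds CLiP medium without the compounds, so the compounds, the medium, the time in culture and the passages cannot be told apart. In bulk RNA, fewer cells of a type and less RNA per cell cannot be told apart either. The labels do not say whether the replicates are separate cultures or animals, so the p-values measure the spread between these samples.

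The 3 compounds act on pathways with well-known target genes. ROCK phosphorylates the myosin light chain machinery and so drives actomyosin contraction, and actin assembly in turn frees the coactivators of serum response factor (SRF). The TGF-β type I receptor phosphorylates SMAD2 and SMAD3, which switch on matrix and cytoskeletal genes in injured or cultured liver cells. GSK3 marks β-catenin for degradation, so its inhibition raises Wnt target genes in many cells. Hepatocytes plated on stiff collagen lose albumin, clotting factors and drug-metabolizing enzymes within days and take on features of a wounded epithelium. Gene lists for these pathways, for liver functions and for other cell types of the liver were written from general knowledge.

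Each library counted unique molecular identifiers (UMIs) at transcript 3′ ends by CEL-Seq2. Totals ran from 1936106 to 3872936 counts in CLiPs and from 861047 to 2554130 in 2-week hepatocytes, so that 3 counts, taken as the floor of detection, equal 0.775 to 3.48 CPM (counts per 1e6 counts). Levels are given as CPM scaled by the trimmed mean of M values (TMM), with libraries in the order of replicates 1, 2 and 3. The mitochondrial share of counts was 1.20% to 1.99% in CLiPs and 1.29% to 3.12% in 2-week hepatocytes (exact permutation test, two-sided, p = 0.6, where 0.1 is the smallest value that 3 against 3 allows).

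The CLiP libraries were less alike than the 2-week libraries. The Spearman correlation over genes was 0.936 to 0.955 within the 2-week group, whereas in CLiPs it was 0.897 for replicates 1 and 2, 0.864 for 1 and 3 and 0.749 for 2 and 3. Of 10884 genes, 602 were above all 2-week libraries in CLiP replicate 3 and below all of them in replicates 1 and 2, and 571 showed the opposite. Xist, the transcript of the inactive X chromosome, stood at 247 and 456 CPM in CLiP replicates 1 and 2 and was not counted in CLiP replicate 3 or in the 2-week libraries, whereas Ddx3y, on the Y chromosome, had no count in CLiP replicates 1 and 2. The counts of these 2 libraries thus differ from the stated sex of the animals. Sex, cell source and treatment cannot be told apart for them. Results of the main gene lists are therefore also given without CLiP replicate 3 and for that library alone, the only CLiP library without Xist. No gene exceeded, in any library, the number of different sequences that 6 bases allow, so a UMI of that length, which was read from the counts and not from the labels, would set a ceiling of 2114, 923 and 1975 CPM in the CLiP libraries and of 1498, 2493 and 5248 CPM in the 2-week libraries. Of 294 genes that passed 50% of that ceiling in some library, 19 were called. Summed levels that include such genes are limited in the same way, most strongly in CLiP replicate 2, whose ceiling was the lowest.

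Of 46078 gene identifiers in the table, 10884 had enough counts to be tested. A gene was called when its false discovery rate (FDR) in the quasi-likelihood test of edgeR was under 0.1 and its absolute log2 fold change was over 2, the thresholds of the study. By this rule 546 genes were called, which is 5.02% of those tested. They comprised 339 genes higher in CLiPs (3.11%) and 207 lower (1.9%), and without the fold threshold 564 were higher (5.18%) and 331 lower (3.04%), or 8.22% in all. The median log2 fold change over all genes tested was 0.07. In 331 of the 339 higher and 205 of the 207 lower genes, each CLiP library was beyond every 2-week library. Over all genes tested, the groups did not overlap for 1306 with CLiPs higher (12%) and for 1157 with CLiPs lower (10.6%). A gene counted in a single group passed the low-count filter only where it was high there, so counts over tested members of a list describe those members and not the whole list. List counts from a fit without a library are to be read against all calls of that fit, not against those of the main fit. Without CLiP replicate 3, 495 genes were called higher and 486 lower of 11208 tested. Without 2-week replicate 2, the numbers were 129 and 112 of 11711. The number of calls depended on single libraries. It was 981 without CLiP replicate 3, 329 without 2-week replicate 1 and 241 without 2-week replicate 2, and 1194 when the 3 2-week libraries were set against CLiP replicate 3 alone.

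**Figure D1:**
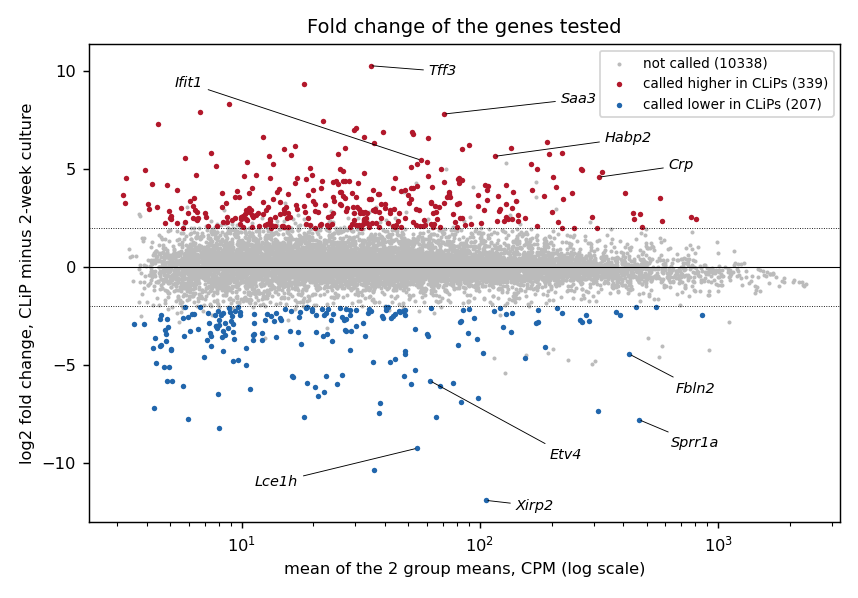
Log2 fold change (CLiP minus 2-week culture) of 10884 genes against the mean of the 2 group means in CPM, on a log scale, with the 339 genes called higher in red and the 207 called lower in blue. Called genes lie at low and at high levels, and the dotted lines mark the fold threshold of 2 on the log2 scale.

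The 10 genes with the smallest p among those higher in CLiPs included genes of secreted proteins, of enzymes and of the endoplasmic reticulum. Habp2, a plasma serine protease made by hepatocytes (chr19:56287137-56320822, GRCm38), stood at 197, 217 and 266 CPM in CLiPs and at 3.66, 4.87 and 5.12 CPM in 2-week hepatocytes, a difference of 5.66 ± 0.40 (log2, ± SE, with an edgeR FDR of 0.00033). Every CLiP library was thus far above every 2-week library. Pamr1, a secreted protein with a protease-like domain, stood at 443, 228 and 472 CPM against 6.95, 7.30 and 6.41 CPM (log2 fold change 5.77 ± 0.45). Crp, the C-reactive protein of the acute phase, stood at 685, 454 and 684 CPM against 20.8, 37.7 and 15.4 CPM (4.6 ± 0.46). For neither gene did the groups overlap. Cxcl5, a chemokine that attracts neutrophils, stood at 445, 476 and 262 CPM against 30, 23.7 and 12.8 CPM, and Herpud1, a component of the degradation machinery of the endoplasmic reticulum, at 191, 257 and 251 CPM against 30.4, 18.9 and 24.3 CPM. The acute-phase apolipoprotein Saa3, the enzymes Renbp and Akr1c19, and Clmn and Prr15l completed the 10, with log2 fold changes of 7.82, 3.27, 3.95, 5.01 and 4.55. All 10 remained called whichever library was left out and against CLiP replicate 3 alone.

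The largest increases among genes at 20 CPM or more were in transcripts hardly counted in 2-week hepatocytes. Tff3, a trefoil peptide of mucus-secreting epithelia, stood at 22.7, 8.79 and 177 CPM in CLiPs and had no count in the 2-week libraries, at least 91.6-fold higher. Apcs, the serum amyloid P component, stood at 15, 27.3 and 67.0 CPM and likewise had no count in 2-week hepatocytes, at least 58.8-fold higher. CLiP replicate 3 held the highest value of both. Dcdc2a, a doublecortin-family gene, stood at 108, 152 and 48.7 CPM against 0.731, 0 and 2.56 CPM, and Mmp7, the metalloproteinase matrilysin, at 127, 21.2 and 162 CPM against 0.366, 0 and 3.84 CPM. Saa3 rested on few 2-week counts, and its ratio was 248 with a 95% counting interval of 84.6 to 1203. The ratios of Acot3, an acyl-CoA thioesterase whose counts may be shared with its close relative Acot1, Rgn, Eps8l3, Serpina10 and Sord lay between 105 and 184, each resting on 1 to 3 counts in the 2-week group. Sord stood at 15, 57.9 and 121 CPM in CLiPs, and the other 4 rested largely on CLiP replicate 3, with Acot3 at 7.74, 12.6 and 111 CPM, Rgn at 8.26, 11.5 and 161 CPM, Eps8l3 at 11.4, 10.6 and 154 CPM and Serpina10 at 11.4, 14.2 and 208 CPM. Without that library these 4 remained called, with log2 fold changes of 5.41 (Acot3), 4.51 (Rgn), 4.6 (Eps8l3) and 4.33 (Serpina10) in place of 7.49, 7.09, 7.01 and 6.92. The intervals of the ratios were 32.8 to 7308 for Acot3, 33.7 to 1014 for Rgn, 32.7 to 984 for Eps8l3, 35.7 to 511 for Serpina10 and 37.2 to 532 for Sord. Tff3, Acot3, Rgn, Eps8l3 and Serpina10 were no longer called without 2-week replicate 1 or without 2-week replicate 2, and Rgn and Serpina10 were also lost without 2-week replicate 3, which left 4 or 7 of these 9 genes (Tff3, Apcs, Acot3, Rgn, Eps8l3, Serpina10, Dcdc2a, Mmp7 and Sord) called.

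The leading genes among those lower in CLiPs included transcripts of the cornified envelope, the protein shell of terminally differentiating keratinocytes. Lce1g, a late cornified envelope gene, stood at 0.516, 0.676 and 0.482 CPM in CLiPs and at 129, 96.8 and 167 CPM in 2-week hepatocytes, a difference of -7.67 ± 0.49 (log2, ± SE, with an edgeR FDR of 0.00028). Sprr1a, which encodes a small proline-rich protein of the same envelope, stood at 1.03, 6.99 and 3.38 CPM against 609, 907 and 1267 CPM (-7.80 ± 0.68). In CLiPs Lce1g was below the floor, whereas Sprr1a was above it in replicates 2 and 3. Etv4, an ETS transcription factor induced by growth factor signaling, stood at 2.06, 2.25 and 1.93 CPM against 120, 112 and 133 CPM (-5.82 ± 0.39). Gata2, a transcription factor best known from blood and endothelial cells, stood at 0.516, 0.451 and 0.482 CPM against 54.1, 34.1 and 43.6 CPM, and Fbln2, a matrix fibulin, at 28.4, 40.4 and 42.4 CPM against 595, 969 and 870 CPM. Fbln2 was the exception among these in being well counted in CLiPs too. Xirp2, an actin-binding protein of striated muscle, had no count in CLiPs and stood at 244, 275 and 118 CPM in 2-week hepatocytes, at least 661-fold lower. Lce1h, with a single count in CLiPs, had a ratio of 906 (interval 162 to 35834). Hecw1, Igfbp3 and the lactate exporter gene Slc16a3 completed the 10 with log2 fold changes of -5.57, -4.84 and -5.96. All 10 remained called whichever library was left out and against CLiP replicate 3 alone.

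The same held for 5 more genes among those with the largest decreases. Ivl, the envelope protein involucrin, had a ratio of 283 (interval 50.2 to 11254), and Nt5e, the ectonucleotidase CD73, one of 224 (76.2 to 1092). Tnnt2, cardiac troponin T, stood at 7.74, 1.13 and 3.38 CPM against 476, 887 and 498 CPM. The hedgehog ligand gene Dhh and the LIM domain gene Lmcd1 had log2 fold changes of -6.95 and -6.89.

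**Figure D2:**
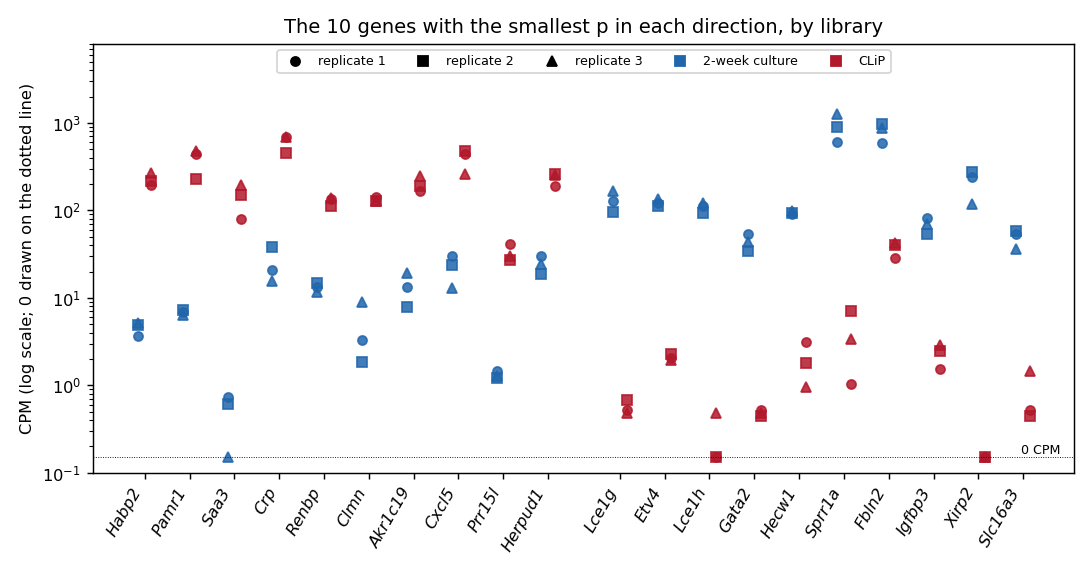
CPM of the 10 genes of lowest p in either direction, on a log scale, in the 3 CLiP libraries (red) and the 3 2-week libraries (blue), with 1 symbol shape per replicate and values of 0 drawn on the dotted line. The red and blue symbols of each gene do not overlap, for example 197 to 266 CPM against 3.66 to 5.12 CPM for Habp2.

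Interferon-stimulated genes (ISGs) were higher in CLiPs. These genes are switched on by type I or type II interferon through transcription factors of the STAT and IRF families, and many encode antiviral proteins or parts of antigen presentation. Of 37 listed genes, 24 were tested and 12 were called, all of them higher, against 3.11% of all genes tested. A further 9 were higher at an FDR under 0.1 with a smaller fold change. The median log2 fold change of the tested members was 2.00, against 0.07 over all genes. All 24 were above 0, and in 22 the CLiP libraries lay above all 2-week libraries (12% of all genes). Ifit1, which binds viral RNA, stood at 106, 168 and 57.9 CPM in CLiPs and at 4.39, 0.609 and 1.28 CPM in 2-week hepatocytes (log2 fold change 5.47 ± 0.68, edgeR FDR 0.0028). Ifit3 stood at 78.4, 55.2 and 21.2 CPM against 2.19, 1.22 and 1.28 CPM (4.90 ± 0.64). For both, the CLiP levels were lowest in replicate 3. Oasl2, a relative of the oligoadenylate synthetases, stood at 122, 119 and 14.0 CPM against 6.22, 1.83 and 1.28 CPM. Rsad2, the antiviral protein viperin, Usp18, which removes the ubiquitin-like ISG15, and the immunoproteasome subunit gene Psmb8 had log2 fold changes of 3.59, 2.75 and 2.91. Ifi27, Ifit2, Cmpk2, the transcription factor gene Irf7 and the GTPase gene Gbp2 had 2.49, 3.35, 3.37, 2.76 and 2.54, and Bst2, which tethers virus particles, had 2.14 with overlapping groups. Of the genes with smaller folds, Ifi35 had a log2 fold change of 1.46, the class I antigen presentation genes H2-D1 of 1.60 and B2m of 1.11, and Irf9 of 0.79 (edgeR FDR 0.29). Reads of H2-D1 may be shared with its close relatives. The number of ISGs called was 18 without CLiP replicate 3, 7 without CLiP replicate 2, 7 without 2-week replicate 1, 2 without 2-week replicate 2, 7 without 2-week replicate 3 and 7 against CLiP replicate 3 alone.

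The interferon-stimulated response element (ISRE) is the motif bound by transcription factors of the IRF family. The promoters of 5 ISGs called higher are shown because they carry it, in windows of 30 bases read 5′ to 3′ in the direction of the gene from the RefSeq promoter table (GRCm38.p6), which covers 250 bases before to 50 bases after each start. Capitals mark the motif, GAAA followed by any 2 bases and another GAAA, or its reverse complement where it lies on the other strand.
Ifit1, chr19:34640775-34640804, plus strand: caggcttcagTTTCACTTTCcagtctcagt
Ifit3, chr19:34583363-34583392, plus strand: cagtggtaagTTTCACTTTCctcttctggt
Gbp2, chr3:142620594-142620623, plus strand: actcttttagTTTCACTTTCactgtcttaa
Bst2, chr8:71537577-71537606, minus strand: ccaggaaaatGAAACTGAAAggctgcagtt
Rsad2, chr12:26456553-26456582, minus strand: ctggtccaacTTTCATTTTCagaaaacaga
Searched on both strands, the motif was present in 14 of the 29 listed ISGs with a promoter in the table (48.3%) and in 3.99% of all 27025 promoters. Among tested genes with a promoter it was present in 9 of the 20 ISGs (45%) and in 3.45% of all. The list was written to hold interferon targets, so these shares do not test whether IRF factors act here. A match describes the letters of the window and does not show that it is bound in these cells.

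Acute-phase genes, which the liver raises in response to interleukin-6 and interleukin-1, were also higher in CLiPs. Of 26 listed genes, 16 were tested and 10 were called, all higher (3.11% of all genes), with a median log2 fold change of 2.80. Saa3 stood at 80.5, 149 and 193 CPM in CLiPs and at 0.731, 0.609 and 0 CPM in 2-week hepatocytes. Lcn2, the siderophore-binding protein lipocalin 2, stood at 1337, 898 and 1886 CPM against 193, 288 and 255 CPM (log2 fold change 2.49 ± 0.40, edgeR FDR 0.0081), close to the UMI ceiling in CLiP replicates 2 and 3. Lbp, which binds lipopolysaccharide, stood at 45.4, 49.8 and 94.5 CPM against 5.12, 9.13 and 12.8 CPM. All CLiP libraries were above all 2-week libraries for these genes. The haptoglobin gene Hp stood at 281, 352 and 1645 CPM against 47.2, 62.7 and 53.8 CPM, and the fibrinogen chain genes Fga and Fgg, the hemopexin gene Hpx and the metallothionein gene Mt2, whose counts may be shared with Mt1, had log2 fold changes of 2.34, 4.88, 2.72 and 2.08. Crp and Apcs, described above, were the others called. Not every acute-phase gene followed. Hamp, the iron hormone hepcidin, stood at 0.516, 0 and 249 CPM in CLiPs against 201, 354 and 333 CPM, and Itih3 at 9.80, 6.54 and 739 CPM against 7.31, 6.69 and 3.84 CPM, and neither passed the test (edgeR FDR 0.64 and 0.11). In both, CLiP replicate 3 stood apart from the other CLiP libraries. The number called was 8 higher and 1 lower without CLiP replicate 3, 7, 5 and 6 without 2-week replicates 1, 2 and 3, and 21 of 24 tested against CLiP replicate 3 alone.

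Chemokines and targets of NF-κB, the transcription factor of innate immune signaling, showed 10 members called higher (3.11% of all genes) and 2 lower (1.9%). Of the 42 listed, 24 were tested, and the median log2 fold change was 1.42. Their summed level was 5219, 4443 and 5764 CPM in CLiPs and 1468, 1380 and 1413 CPM in 2-week hepatocytes. Cxcl16 stood at 211, 105 and 213 CPM against 24.1, 21.3 and 14.1 CPM (log2 fold change 3.12 ± 0.42, edgeR FDR 0.0038). Icam1, the leukocyte adhesion molecule, stood at 379, 292 and 380 CPM against 69.8, 35.9 and 43.6 CPM, and the monocyte chemokine gene Ccl2 at 818, 824 and 606 CPM against 189, 110 and 104 CPM. The increases of Cxcl16 and Icam1 were of similar size in the 3 CLiP libraries. Ccl2 was close to the UMI ceiling in CLiP replicate 2, where counts understate the level. The size of its increase there can therefore not be compared with that in CLiP replicates 1 and 3. Cxcl2, Birc3, Cxcl1 and Ccl7 had log2 fold changes of 3.18, 2.92, 2.70 and 2.91, and Cxcl5, Lcn2 and Saa3 complete the 10. Nfkbia, the inhibitor that NF-κB itself induces, had 1.17, under the fold threshold. The prostaglandin synthase gene Ptgs2 fell, with a ratio of 46.7 (interval 12.3 to 395), as did the alarmin gene Il33 (log2 fold change -2.65 ± 0.58). The κB motif, named for the factor it binds, was present in 14 of 31 listed members with a promoter (45.2%) and in 9.55% of all promoters. Among tested genes with a promoter it was present in 8 of 16 members (50%) and in 12.4% of all. The list was written to hold NF-κB targets, so these shares do not test whether the factor acts in these cells. The promoters of the neighboring genes Cxcl1 and Cxcl2 are shown because they hold the same letters, in capitals.
Cxcl1, chr5:90891164-90891193, plus strand: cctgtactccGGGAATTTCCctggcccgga
Cxcl2, chr5:90903792-90903821, plus strand: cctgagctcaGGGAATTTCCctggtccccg
Without 2-week replicate 1, 2 or 3 the list had 7 members called higher and 1 lower. Birc3, Ccl7, Cxcl1 and Il33 were the genes no longer called in each of these. Without CLiP replicate 3 there were 9 higher and 3 lower, with Cxcl1 lost, and against CLiP replicate 3 alone 12 higher and 2 lower, with Birc3 lost. Il33 was also lost without CLiP replicate 1.

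Of 47 listed complement and coagulation genes, 23 were tested, with a median log2 fold change of 2.2. Of these, 8 were called higher (3.11% of all genes) and 1 lower (1.9%). The complement component genes C2, C3 and C1ra led in all CLiP libraries. C2 stood at 207, 142 and 238 CPM against 21.9, 11 and 21.8 CPM (log2 fold change 3.43 ± 0.42, edgeR FDR 0.0024), and C3, on which all complement pathways converge, at 1379, 715 and 1861 CPM against 221, 268 and 169 CPM. C1ra stood at 27.9, 30.4 and 55.9 CPM against 1.83, 0.609 and 0 CPM. The other increases were much larger in CLiP replicate 3 than in the other replicates. Serping1, the C1 inhibitor, stood at 12.9, 38.1 and 269 CPM against 2.93, 1.83 and 3.84 CPM, and C4b (counts may be shared with C4a), Cfi, C1s1 and C4bp had log2 fold changes of 5.79, 2.47, 3.59 and 3.61. F12, coagulation factor XII, stood at 2.06, 0.451 and 782 CPM against 31.8, 23.7 and 19.2 CPM, with replicate 3 far above and the other CLiP libraries below the 2-week range, and was not called. Without CLiP replicate 3 the list had 5 members called higher and 6 lower with a median of 0.12, and against CLiP replicate 3 alone 27 of 37 tested were higher and 2 lower. Without any single 2-week library, 4 remained higher and 1 lower, with C1s1, C4bp, Cfi and Serping1 lost.

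Genes of hepatocyte function differed between the CLiP libraries themselves. The list of secreted plasma proteins had 7 members called higher among 28 tested of 37, with a median log2 fold change of 1.82. The list of metabolic enzymes had 3 higher and 2 lower among 13 of 41 (median 0.67). The list of drug metabolism enzymes had 4 higher among 22 of 60 (median 1.02). Over all genes tested, 3.11% were called higher and 1.9% lower. Of 23 transporters, 7 were tested and edgeR and DESeq2 called none, while 3 were higher at an unadjusted p under 0.05 (Abcc3, Slc2a2 and Abcc2, with log2 fold changes of 1.48, 4.31 and 1.13, whereas Slc38a4 had -1.50 and an edgeR FDR of 0.53). The summed level of secreted proteins was 7930, 8640 and 38471 CPM in CLiPs against 8058, 9476 and 12283 CPM in 2-week hepatocytes. Replicates 1 and 2 were therefore within or just below the 2-week range and replicate 3 above it. Of 48 tested secreted, metabolic and transporter genes, 19, 22 and 42 were above every 2-week library in CLiP replicates 1, 2 and 3, and 21, 20 and 2 were below every one. The median log2 ratio to the 2-week mean, with 1 CPM added to both, was -0.01, 0.09 and 2.12. Alb, albumin, stood at 236, 416 and 1647 CPM in CLiPs and at 105, 90.1 and 147 CPM in 2-week hepatocytes (log2 fold change 2.75 ± 0.68, edgeR FDR 0.048). Apoh, an apolipoprotein, stood at 89.8, 89.9 and 782 CPM against 9.14, 9.74 and 5.12 CPM. Both were above the 2-week range in every CLiP library. Vtn, vitronectin, rested on CLiP replicate 3, at 17, 42.6 and 1244 CPM against 8.78, 6.09 and 7.69 CPM. Hp, Fga, Fgg and Hpx, listed here as well, were described with the acute phase. Ttr, the thyroid hormone carrier transthyretin, stood at 1088, 752 and 1757 CPM against 295, 419 and 338 CPM, with a fold change under the threshold. Ttr was close to the UMI ceiling in CLiP replicates 2 and 3, where counts understate the level. Its fold change is therefore understated and does not show that the increase was below the threshold. In contrast, Apoa1, the main apolipoprotein of HDL, stood at 41.8, 52.7 and 1867 CPM against 433, 326 and 791 CPM, and Serpina1c, an α1-antitrypsin whose counts may be shared with its paralogs, at 302, 315 and 1896 CPM against 331, 476 and 454 CPM. Neither was called, and without CLiP replicate 3 both turned to lower in CLiPs, with log2 fold changes of -3.45 and -0.45.

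**Figure D3:**
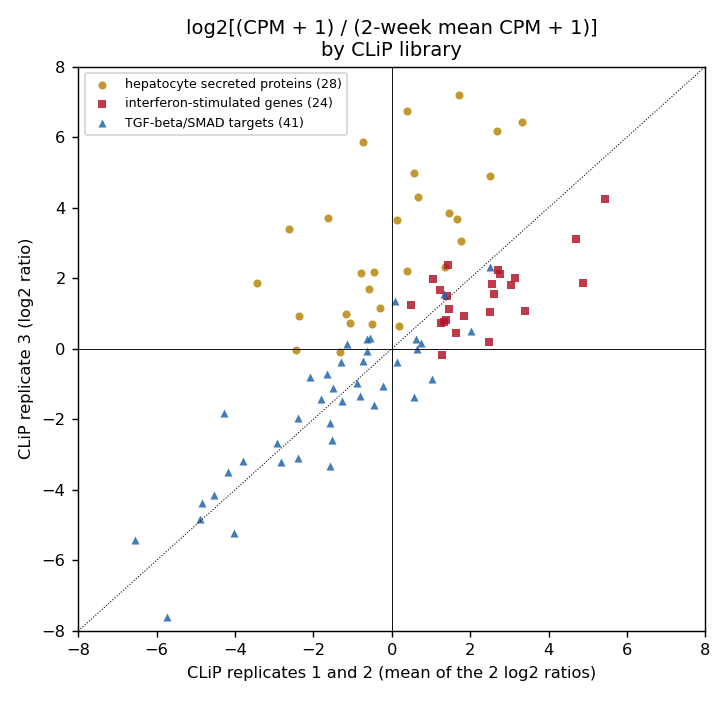
Log2 ratio to the 2-week mean (1 CPM added to both) in CLiP replicate 3 against the mean of the log2 ratios in CLiP replicates 1 and 2, for tested secreted hepatocyte proteins (28), interferon-stimulated genes (24) and TGF-β/SMAD targets (41). Hepatocyte genes lie above the dotted line of equality, interferon-stimulated genes mostly below it, and TGF-β targets along it.

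Among hepatocyte enzymes, Pygl, liver glycogen phosphorylase, stood at 0, 0 and 6.75 CPM against 147, 120 and 135 CPM (log2 fold change -6.05 ± 1.09, edgeR FDR 0.013). It fell in all CLiP libraries, including replicate 3. Ass1, an enzyme of the urea cycle, fell as well (-3.25 ± 0.84), and Gnmt, a glycine methyltransferase, rose (3.96 ± 1.15). Among drug metabolism enzymes, the glutathione transferase gene Gsta3 stood at 572, 414 and 248 CPM against 37.3, 21.9 and 51.2 CPM (3.50 ± 0.47, edgeR FDR 0.0038), higher in all CLiP libraries and lowest of these in replicate 3. The sulfotransferase gene Sult1a1, the glucuronosyltransferase gene Ugt2b36 and the cytochrome P450 gene Cyp2d10 had log2 fold changes of 3.73, 2.27 and 6.07, of which the last rested on 776 CPM in CLiP replicate 3. Cyp2d10 and Ugt2b36 have close paralogs that may share counts. Ugt2b34 (1.95), Cyp39a1 (1.54) and Ephx2 (-1.70) had an edgeR FDR under 0.1 and smaller folds. Of 28 listed hepatocyte transcription factors, 25 were tested, with 2 called higher (3.11% of all genes) and 2 lower (1.9%) and a median of 0.75. Creb3l3, a regulator of fasting metabolism, stood at 22.7, 64.5 and 396 CPM against 9.87, 2.43 and 10.2 CPM, and Onecut1 (HNF6) at 6.19, 8.34 and 19.8 CPM against 1.46, 1.83 and 1.28 CPM. Gata4 and Tbx3 were lower, with log2 fold changes of -2.83 and -3.53. Cebpb had 1.60 (edgeR FDR 0.022), under the fold threshold. Hnf4a, the master regulator of the hepatocyte program, stood at 26.3, 68.1 and 315 CPM against 265, 150 and 296 CPM and was not called. CLiP replicate 3 was the highest of the 6 libraries. Of the 10 hepatocyte markers, 8 were tested and Alb was called, while the fibrinogen gene Fgb had 1.29 (edgeR FDR 0.26). Both groups held hepatocyte transcripts, with summed marker levels of 3305, 3226 and 12636 CPM in CLiPs and 3378, 3769 and 4700 CPM in 2-week hepatocytes.

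Calls in these lists depended on CLiP replicate 3 and on each 2-week library. Without CLiP replicate 3, secreted proteins had 3 higher and 3 lower (median -0.05), metabolic enzymes 1 and 3, drug metabolism enzymes 3 and 1, transcription factors 3 and 5, and 2 of the markers were lower. Without 2-week replicates 1, 2 and 3, secreted proteins had 2, 0 and 2 called higher by edgeR, drug metabolism enzymes had 2, 1 and 1, and no metabolic enzyme was called higher in any of these. In CLiP replicate 3 alone, the median log2 ratio to the 2-week mean was 2.12 over the 48 tested secreted, metabolic and transporter genes. Of the 18 called genes named from these lists, 17, 17 and 11 remained called without CLiP replicates 1, 2 and 3 and 6, 2 and 6 without 2-week replicates 1, 2 and 3. Alb was among those lost without CLiP replicate 3 and without each 2-week library in turn, whereas Pygl and Gsta3 remained called in every case.

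Targets of TGF-β were lower in CLiPs. Of 53 listed genes, 41 were tested, of which 11 were called lower (1.9% of all genes) and 1 higher, and 4 more were lower at an FDR under 0.1 with a smaller fold change. The median log2 fold change was -1.27, 32 of the 41 were below 0, and in 23 all CLiP libraries were below all 2-week libraries (10.6% of all genes). The summed level was 5039, 4173 and 4832 CPM in CLiPs and 6286, 7511 and 6196 CPM in 2-week hepatocytes. Igfbp3, a carrier of insulin-like growth factors, stood at 1.55, 2.48 and 2.89 CPM against 82.3, 54.2 and 69.2 CPM (log2 fold change -4.84 ± 0.44, edgeR FDR 0.00079). Tnc, the injury-induced matrix glycoprotein tenascin C, stood at 4.13, 1.58 and 0 CPM against 195, 259 and 128 CPM (-6.69 ± 0.77). Thbs1, thrombospondin 1, which activates latent TGF-β, stood at 9.29, 13.5 and 4.34 CPM against 189, 261 and 143 CPM. The 3 CLiP libraries were alike in these genes and apart from all 2-week libraries. The collagen genes Col1a1 and Col5a2 and the collagen cross-linking enzyme genes Lox and Loxl2 had log2 fold changes of -6.12, -6.58, -4.22 and -2.47, where Col5a2 had few CLiP counts and a ratio of 125 (interval 42.2 to 611). Lmcd1 and the genes of the latent TGF-β binding proteins Ltbp1 and Ltbp3 had -6.89, -3.68 and -2.2. Feedback genes moved less, with Pmepa1 at -1.64 and Smad7 at -1.50 (edgeR FDR 0.043 and 0.079), and Ccn2 had -1.76. The ligand gene Tgfb2 rose, from 45.0, 52.3 and 26.9 CPM to 239, 245 and 209 CPM in CLiPs (2.46 ± 0.36). Markers of stellate cells and fibroblasts, given further on, were also lower in CLiPs and share Col1a1 with this list, and their part in the result was not tested. The number called lower was 10 to 16 whichever library was left out (16 without CLiP replicate 3) and 16 against CLiP replicate 3 alone. Ltbp3 was lost without CLiP replicate 2 and against replicate 3 alone, and Loxl2 without 2-week replicate 2.

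**Figure D4:**
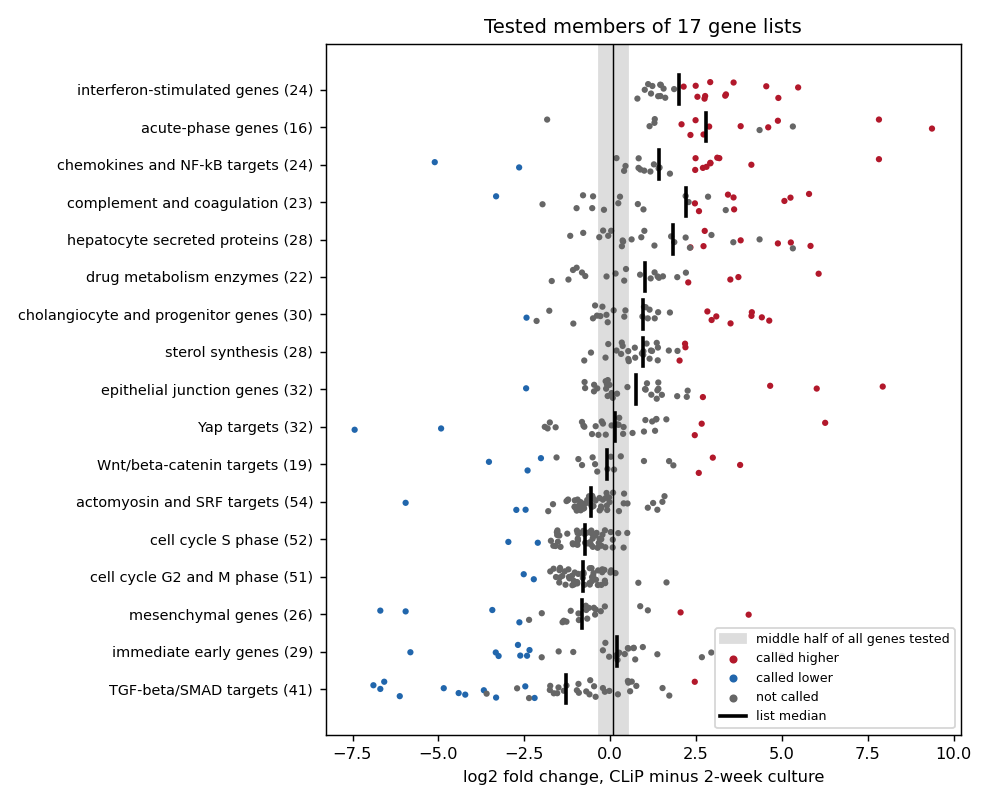
Log2 fold change (CLiP minus 2-week culture) of each tested member of 17 gene lists, with the number tested in parentheses, called members in red or blue, the list median as a black bar and the interquartile range of all genes tested as a grey band. The medians run from 2.80 for acute-phase genes and 2.00 for interferon-stimulated genes to -1.27 for TGF-β/SMAD targets.

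Of 56 listed genes of the actomyosin cytoskeleton and targets of SRF, 54 were tested and 3 were called, all lower (1.9% of all genes), with a median log2 fold change of -0.57 and 44 of 54 below 0. At an FDR under 0.1 with any fold change, 4 members were higher (5.18% of all genes) and 4 lower (3.04%). Their summed level was 16835, 14522 and 17185 CPM in CLiPs against 19320, 25475 and 31948 CPM. Acta2, smooth muscle actin, stood at 1.03, 2.03 and 1.45 CPM against 115, 156 and 30.7 CPM (log2 fold change -5.95 ± 0.69, edgeR FDR 0.0021). Tpm2, a tropomyosin gene, stood at 1.03, 4.06 and 5.30 CPM against 21.6, 25.6 and 24.3 CPM, and Myl9, the regulatory myosin light chain acted on by the ROCK pathway, at 6.19, 7.44 and 13 CPM against 58.9, 72.4 and 12.8 CPM. The groups overlapped only for Myl9, through CLiP replicate 3 and 2-week replicate 3. The markers of stellate cells and fibroblasts summed to 74.3, 29.5 and 128 CPM in CLiPs against 316, 312 and 173 CPM, and Acta2 is also known from activated stellate cells. Their part in these results and in those of the mesenchymal list was not tested. Csrp1 had a log2 fold change of 1.37 at an edgeR FDR under 0.1. The SRF motif CArG, searched by its name, was present in 11 of the 51 members with a promoter (21.6%) and in 1.81% of all promoters. The list was written to hold SRF targets, so this share does not test whether SRF acts in these cells. The window of Myl9 is shown because the gene was called.
Myl9, chr2:156775293-156775322, plus strand: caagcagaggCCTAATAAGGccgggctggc
The number called lower was 7 without CLiP replicate 3, 5 without CLiP replicate 2, 2 without 2-week replicate 1, 1 without 2-week replicate 2 and 11 against CLiP replicate 3 alone. Acta2 remained called in each of these, whereas Myl9 was lost without CLiP replicate 1, without 2-week replicate 1 or 2 and against CLiP replicate 3 alone.

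Of 36 listed mesenchymal genes, 26 were tested, with 4 called lower (1.9% of all genes) and 2 higher (3.11%), a median log2 fold change of -0.81 and 22 of 26 below 0. Vim, the intermediate filament vimentin, stood at 151, 262 and 357 CPM in CLiPs against 558, 530 and 930 CPM, a log2 fold change of -1.39 ± 0.42 (edgeR FDR 0.098) that is under the fold threshold although the groups did not overlap. Nes, nestin, stood at 14.4, 12.8 and 2.89 CPM against 91.8, 110 and 129 CPM (-3.43 ± 0.53). Acta2 and Tnc, described above, were also called in this list. Lamb1, a laminin chain, stood at 15.5, 6.99 and 0.482 CPM against 67.6, 46.3 and 26.9 CPM (-2.64 ± 0.78). The 2 genes that rose were the annexin gene Anxa1, at 136, 142 and 12.1 CPM against 7.68, 4.26 and 5.12 CPM, and the laminin chain gene Lamc1 (2.05 ± 0.47). Calls numbered 2 higher and 6 lower without CLiP replicate 3, 1 and 4 without CLiP replicate 2, 0 and 3 without each 2-week library in turn, and 1 and 5 against CLiP replicate 3 alone. Lamb1, Lamc1 and Anxa1 were lost without each 2-week library in turn, and Lamb1 and Lamc1 without CLiP replicate 2.

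Epithelial junction genes held 4 called higher (3.11% of all genes) and 1 lower (1.9%). Of the 46 listed, 32 were tested, and the median log2 fold change was 0.76. Marveld3, a tight junction protein, stood at 9.80, 14.4 and 15.9 CPM in CLiPs and had no count in 2-week hepatocytes, at least 23.6-fold higher. Ehf, an ETS factor of epithelia, stood at 189, 99.2 and 205 CPM against 0.366, 0.609 and 10.2 CPM (6.01 ± 0.94, edgeR FDR 0.0073). Both were near the floor in at least 2 of the 2-week libraries. Marveld2, tricellulin, had a log2 fold change of 2.70. The connexins went opposite ways, with Gjb1, the main hepatocyte connexin, at 7.74, 18.7 and 323 CPM against 4.75, 3.04 and 6.41 CPM (4.66 ± 1.31) and Gja1 lower (-2.45 ± 0.52). Cdh1, E-cadherin, stood at 723, 609 and 318 CPM against 532, 563 and 579 CPM, with groups that overlapped and a log2 fold change of -0.02 ± 0.37. Ocln, occludin, stood at 87.7, 74.4 and 86.8 CPM against 26.7, 41.4 and 25.6 CPM, a difference of 1.40 under the fold threshold, and Cldn3 had -0.75 ± 0.49 (edgeR FDR 0.51). Of 17 listed keratins, 6 were tested and Krt20 was called, at 13.4, 38.8 and 9.16 CPM against 157, 112 and 164 CPM. Krt19, a marker of bile duct and progenitor cells, stood at 23.2, 21.4 and 6.27 CPM against 65.8, 37.1 and 73.0 CPM, a log2 fold change of -1.77 ± 0.51 (edgeR FDR 0.088) that did not reach the fold threshold. Krt8 and Krt18, the keratins of hepatocytes, had -0.89 and -0.71 and were not called. Junction calls were 6 higher and 2 lower without CLiP replicate 3, 5 and 1 without CLiP replicate 1, 4 and 2 without CLiP replicate 2, 3 and 0, 2 and 0, and 3 and 1 without 2-week replicates 1, 2 and 3, and 8 and 2 against CLiP replicate 3 alone. Gja1, Gjb1 and Marveld2 were lost without each 2-week library in turn, and 1 of them without each CLiP library.

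Wnt and β-catenin targets were called in both directions. Of 39 listed genes, 19 were tested, with 3 called higher (3.11% of all genes), 3 lower (1.9%) and a median log2 fold change of -0.08. Fgfbp1, a carrier of fibroblast growth factors, stood at 20.6, 9.02 and 30.4 CPM against 1.46, 0.609 and 2.56 CPM (3.78 ± 0.70), Bmp4 at 8.26, 31.3 and 40.5 CPM against 3.29, 3.04 and 3.84 CPM, and Lgr4, a receptor for R-spondins, at 12.9, 54.6 and 14.0 CPM against 4.02, 3.04 and 7.69 CPM. All were low in 2-week hepatocytes. Ccnd1, cyclin D1, was lower, at 164, 385 and 104 CPM against 596, 888 and 1161 CPM (-2.02 ± 0.52, edgeR FDR 0.056), as were Tbx3 and the stem cell factor gene Ascl2 (-3.53 and -2.40). Without 2-week replicates 1, 2 and 3 they numbered 0 higher and 1 lower, 0 and 0, and 1 and 2, and without CLiP replicate 3 they were 5 higher and 2 lower. Against CLiP replicate 3 alone they were 4 higher and 2 lower. DESeq2 called 3 in each direction with all libraries. At an unadjusted p under 0.05, 6 were higher and 4 lower. Of the 6 genes, 4, 4 and 5 remained called without CLiP replicates 1, 2 and 3, and 1, 0 and 2 without 2-week replicates 1, 2 and 3.

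Immediate early genes, many of which report growth factor signaling through ERK, had 7 members called among 29 tested of 36 listed, all lower (1.9% of all genes), while the list median was 0.20. Etv5, a close relative of Etv4, stood at 7.74, 3.83 and 4.34 CPM in CLiPs against 45.0, 68.8 and 34.6 CPM (log2 fold change -3.25 ± 0.47, edgeR FDR 0.0056). Dusp6, the phosphatase that inactivates ERK, stood at 19.1, 89.7 and 24.1 CPM against 240, 251 and 193 CPM (-2.35 ± 0.57). Dusp5, another ERK phosphatase, stood at 36.1, 36.5 and 140 CPM against 446, 486 and 429 CPM. None of the CLiP libraries reached the 2-week range in these genes. Phlda1, the AP-1 subunit gene Fosl1 and the signaling inhibitor gene Spry2 had -2.62, -3.33 and -2.42, and Etv4 completes the 7. Fos itself stood at 9.80, 4.28 and 406 CPM against 2.93, 5.48 and 5.12 CPM and was not called, with the single high value in CLiP replicate 3. The AP-1 motif TGANTCA was not found in the windows of the 25 members with a promoter, and 8.97% of all promoters held it. Of 17 EGF receptor ligands, receptors and Met genes, 10 were tested and 2 were called, both lower (1.9% of all genes). These were the ligand genes Areg, amphiregulin, with a ratio of 33.6 (interval 8.72 to 287), and Hbegf, at 24.3, 21.4 and 91.6 CPM against 179, 139 and 270 CPM. Ereg and the receptor gene Egfr, with log2 fold changes of -1.82 and -1.47, were lower at an edgeR FDR under 0.1 (0.062 and 0.036) with smaller folds. The EGF given to 2-week cultures is named in the methods, and the EGF content of the CLiP medium is not given in the sources used here. Immediate early calls were 0 higher and 9 lower without CLiP replicate 3, 2 and 5 without CLiP replicate 1, 3 and 8 without CLiP replicate 2, 4, 3 and 5 lower without 2-week replicates 1, 2 and 3, and 4 and 7 against CLiP replicate 3 alone. Of the 9 genes called in the 2 lists, 6, 8 and 9 remained called without CLiP replicates 1, 2 and 3, 5, 4 and 6 without 2-week replicates 1, 2 and 3, and 7 against CLiP replicate 3 alone. Etv4, Etv5, Phlda1 and Areg remained called in all of these.

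In the lists for the Hippo, BMP and Notch pathways 1 to 5 genes each were called. Of 36 Yap targets, 32 were tested, with 3 called higher (3.11% of all genes), 2 lower (1.9%) and a median of 0.13. Gas6, the ligand of Axl, stood at 113, 380 and 38.1 CPM in CLiPs against 2.93, 1.22 and 2.56 CPM (log2 fold change 6.26 ± 0.93), while Nt5e and Areg were lower. Tgfb2 and Rbms3 (2.46 and 2.66) were the other increases. The Yap targets Ankrd1 and Ccn2, picked after their values were seen, went opposite ways without reaching the fold threshold. Ankrd1 stood at 661, 644 and 241 CPM against 189, 99.2 and 210 CPM (1.64, edgeR FDR 0.087). Ccn2 stood at 26.3, 32.9 and 20.3 CPM against 106, 90.1 and 73.0 CPM (-1.76, edgeR FDR 0.02). Cyr61, which the study measured together with Ccn2 (Ctgf) as a Yap target, is not given here. In the BMP and Id list, 17 of 32 were tested, with 2 called higher, 1 lower and a median of -0.69. Bmp2 was lower, at 4.64, 3.38 and 3.86 CPM against 14.6, 43.2 and 17.9 CPM, and Bmp4 and the growth factor gene Gdf15 were higher. Id1, a direct BMP target, had -1.35 (edgeR FDR 0.048). Of 21 Notch genes, 11 were tested and the receptor gene Notch3 was called, lower at -3.77, while the list's summed level was 1367, 951 and 1607 CPM in CLiPs against 710, 780 and 751 CPM (exact permutation test, two-sided, p = 0.1, the smallest possible). Of its other members, Hes1 had 1.54, Notch2 1.04 and Lfng -1.82, none of them called. Yap calls were 3 higher and 5 lower without CLiP replicate 3, 3 and 3 without CLiP replicate 2, 2 and 3 without CLiP replicate 1 and 2 and 5 against CLiP replicate 3 alone. Bmp4 and Rbms3 were lost without each 2-week library in turn, and Notch3, the only Notch call, without 2-week replicate 2 or 3. BMP calls were 3 higher and 2 lower without CLiP replicate 2 or 3 and 1 higher without any single 2-week library.

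Genes of cholangiocytes and of fetal liver progenitors had 8 members called higher (3.11% of all genes) and 1 lower (1.9%). Of the 41 listed, 30 were tested, and the median log2 fold change was 0.96. Fetal liver genes were among those that rose. Afp, the α-fetoprotein of fetal hepatocytes, stood at 35.1, 77.8 and 197 CPM in CLiPs against 7.68, 4.26 and 5.12 CPM (log2 fold change 4.12 ± 0.67, edgeR FDR 0.0085). Igf2, the fetal growth factor, stood at 61.9, 187 and 109 CPM against 5.49, 9.74 and 5.12 CPM (4.11 ± 0.53), and the imprinted noncoding RNA H19, its neighbor, at 53.2, 74.8 and 1035 CPM against 15.7, 10.3 and 21.8 CPM. For these genes the groups did not overlap. The growth factor receptor genes Fgfr2 and Fgfr3, Tm4sf1, the integrin gene Itgb4 and Onecut1 had 2.95, 3.50, 4.41, 3.09 and 2.83. Hmga2, a chromatin protein of fetal and transformed cells, was the gene that fell, at 404, 193 and 206 CPM against 829, 1718 and 1796 CPM (-2.44 ± 0.46). Duct markers were not called and went in different directions. Sox9 stood at 1123, 597 and 1195 CPM against 444, 524 and 506 CPM and Spp1, osteopontin, at 1063, 726 and 1263 CPM against 526, 582 and 483 CPM (edgeR FDR 0.19 and 0.18). Prom1, at 66.1, 20.3 and 28.0 CPM against 36.6, 28.6 and 16.7 CPM, overlapped. Krt19, given with the keratins, was lower in every CLiP library than in every 2-week library (log2 fold change -1.77, edgeR FDR 0.088). Sox9 and Spp1 lie near the UMI ceiling in CLiP replicate 2, where counts understate the level. Without 2-week replicates 1, 2 and 3 the list had 4, 2 and 6 members called higher. Onecut1 and H19 were lost in each of these. Without CLiP replicate 3 there were 9 higher and 2 lower, and against CLiP replicate 3 alone 7 higher and 2 lower, with Tm4sf1 lost.

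Of 29 intestinal genes, 8 were tested, with 3 called higher (Tff3, Ly6a and Anxa1, the last of which is in the mesenchymal list too) and Ascl2 lower. Over all genes tested, 3.11% were called higher and 1.9% lower. Ly6a, known as Sca-1 and expressed in regenerating intestinal epithelium, stood at 145, 69.2 and 74.7 CPM against 17.2, 8.52 and 10.2 CPM (log2 fold change 2.96 ± 0.46, edgeR FDR 0.0072). Cdx2, the regulator of intestinal fate, had no count in the 6 libraries, which allows up to 0.775 to 3.48 CPM. S100a7a, at 4.64, 1.58 and 1.45 CPM in CLiPs against 10.2, 5.48 and 3.84 CPM, had too few counts to be tested. Without 2-week replicate 1 or 2 a single member was called, higher, without CLiP replicate 1 the numbers were 4 higher and 0 lower and without CLiP replicate 3 they were 3 and 3. Ly6a remained called in all of these.

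Few cell cycle genes were called. Among S phase genes, 52 of 59 were tested and 2 were called, both lower (1.9% of all genes), with a median log2 fold change of -0.73 and 46 of 52 below 0. Among G2 and M phase genes, 51 of 60 were tested and 2 were called lower, with a median of -0.80 and 46 of 51 below 0. The summed S phase level was 800, 1271 and 1236 CPM in CLiPs against 1865, 1730 and 1986 CPM, with every CLiP library below every 2-week library. The summed G2 and M phase level was 1146, 1486 and 3681 CPM against 3073, 3710 and 3960 CPM, so that replicate 3 lay within the 2-week range. The replication licensing factor gene Cdc6 stood at 1.03, 1.80 and 2.41 CPM against 11.7, 14.6 and 16.7 CPM (-2.96 ± 0.51, edgeR FDR 0.011). Clspn, Mybl2 and Kif23 had log2 fold changes of -2.11, -2.52 and -2.22, and Dut, Ccne1 and Tmpo had -1.54, -1.59 and -1.11 at an edgeR FDR under 0.1. Psrc1, a G2 and M phase gene, went against the others with 1.64 and was not called. Mki67, the proliferation marker, stood at 27.9, 86.1 and 64.6 CPM against 107, 190 and 206 CPM, with no overlap between the groups, a log2 fold change of -1.48 and an edgeR FDR of 0.11. Among 24 tested of 26 inhibitors and p53 targets, Gdf15 was called, at 296, 192 and 237 CPM against 46.1, 51.7 and 43.6 CPM (2.35 ± 0.33, edgeR FDR 0.0052), while Mdm2 and Cdkn2b had -1.14 and -1.74 (edgeR FDR 0.086 and 0.054) and Ccng1 had -0.97. Without CLiP replicate 3, 22 of 51 G2 and M phase genes were called lower with a median of -1.87, and 8 S phase genes were. In that fit, 486 of all 11208 genes tested were called lower. Without CLiP replicate 2, 8 S phase genes and 3 G2 and M phase genes were called lower, and without CLiP replicate 1 the numbers were 1 and 0. Against CLiP replicate 3 alone they were 7 and 1. Without 2-week replicates 1, 2 and 3 they were 1, 2 and 1 for S phase and 0, 0 and 1 for G2 and M phase. Cdc6 and Gdf15 remained called in all of these.

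In the extracellular matrix list, 32 of 46 were tested, with 7 called lower (1.9% of all genes) and 4 higher (3.11%). The median log2 fold change was 0.24. The genes that fell were Fbln2, Thbs1, Tnc, the collagen genes Col5a2 and Col1a1, and the basement membrane genes Nid1 and Lamb1. Of those that rose, the laminin chain gene Lama5 stood at 52.6, 91.5 and 39.1 CPM in CLiPs against 20.1, 6.69 and 16.7 CPM, Lamc1 at 48.0, 112 and 53 CPM against 15, 24.3 and 11.5 CPM, and Col18a1 at 299, 190 and 570 CPM against 120, 43.8 and 50.0 CPM. These had log2 fold changes between 2.05 and 2.29. Among proteases and their inhibitors, 19 of 35 were tested, with 2 called higher, Mmp7 and Mmp15 (6.82 and 2.78), and 2 lower. Adam12, a membrane protease of activated mesenchyme, stood at 0, 0.902 and 0.482 CPM against 37.3, 46.9 and 26.9 CPM (-5.93 ± 0.66, edgeR FDR 0.0017). Adamts1 had 1.90 (edgeR FDR 0.054), under the fold threshold. Matrix calls were 4 higher and 12 lower without CLiP replicate 3, 2 and 8 without CLiP replicate 2, 1 and 5, 0 and 5, and 0 and 7 without 2-week replicates 1, 2 and 3, and 2 and 9 against CLiP replicate 3 alone. Protease calls were 2 higher and 4 lower without CLiP replicate 3, and 1 and 2 without 2-week replicate 2 or 3. Of the 13 called genes named from the 2 lists, 11, 10 and 11 remained called without CLiP replicates 1, 2 and 3, 8, 7 and 8 without 2-week replicates 1, 2 and 3, and 10 against CLiP replicate 3 alone.

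Genes of sterol synthesis tended to be higher. Of 29 listed, 28 were tested and 3 were called, all higher (3.11% of all genes). The median log2 fold change was 0.94, and 24 of 28 were above 0. The summed level was 2553, 2732 and 5026 CPM in CLiPs against 1901, 2367 and 1573 CPM. Fdps, farnesyl diphosphate synthase, stood at 22.2, 11.5 and 14.5 CPM against 2.56, 4.26 and 3.84 CPM (2.19 ± 0.51, edgeR FDR 0.039), and Insig1, which restrains SREBP processing, had 2.18. Sqle and Acat2 had 1.71 and 1.39 at an edgeR FDR of 0.043 and 0.078. Of 26 fatty acid synthesis genes, 16 were tested and 2 were called higher, with a median of 0.35. Scd1 stood at 54.2, 111 and 867 CPM against 35.8, 32.3 and 14.1 CPM and Dgat2 at 85.1, 50.5 and 645 CPM against 27.1, 27.4 and 17.9 CPM, both highest in CLiP replicate 3, and Srebf1, a regulator of the pathway, had 1.63 without being called. Scd2, a second desaturase, stood at 799, 778 and 799 CPM against 230, 199 and 184 CPM, close to the UMI ceiling in CLiP replicate 2 and with a log2 fold change of 1.95 ± 0.31 (edgeR FDR 0.0078) that just missed the fold threshold. None of the 3 sterol synthesis calls was kept without any single 2-week library, and 1 was kept without CLiP replicate 3. Insig1 was lost in the latter case, in which edgeR called no fatty acid synthesis gene, and Fdps without CLiP replicate 1. Scd1 and Dgat2 were also lost without each 2-week library in turn, and 6 and 7 genes were called in the 2 lists against CLiP replicate 3 alone.

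Stress and glycolysis lists held few calls, where over all genes tested 3.11% were called higher and 1.9% lower. All 35 ER stress genes were tested, and 4 were called, all higher, with a median of 0.35: Herpud1, Vldlr, at 38.2, 77.1 and 54.0 CPM against 5.85, 9.13 and 10.2 CPM (2.79 ± 0.44, edgeR FDR 0.0073), Chac1 and Dnajb9 (2.08 and 2.02). Of 32 NRF2 and metallothionein genes, 26 were tested and Mt2 was called, with a list median of -0.06, while Ugdh had -1.77 (edgeR FDR 0.036) and Slc30a1 had 1.31 (0.12). Of 22 glucocorticoid-responsive genes, 16 were tested and 2 were called, both higher, with a median of 0.96. These were Mt2 again and Fam107a, at 26.8, 35.6 and 29.4 CPM against 4.75, 3.65 and 2.56 CPM, while Tsc22d3 and Cebpd had 1.08 and 1.48 without being called. Of 37 glycolysis and hypoxia genes, 31 were tested, with 4 higher and 2 lower and a median of 0.04. The enolase gene Eno2 rose, at 13.4, 10.8 and 10.6 CPM against 1.1, 0.609 and 1.28 CPM, and so did the aldolase gene Aldoc (2.74) and Vegfa (2.53), while hexokinase 2, Hk2, fell (-2.43 ± 0.50). Slc16a3 was the other decrease. Vegfa stood at 134, 275 and 22.2 CPM against 25.6, 25 and 24.3 CPM, so CLiP replicate 3 did not share the increase, and against that library alone the log2 fold change was -0.17. The ER stress list had 4 genes called higher without CLiP replicate 3 and 4 higher and 1 lower against that library alone, and the glycolysis and hypoxia list had 3 higher and 2 lower and 4 and 3. The glucocorticoid list had 1 higher and 2 lower without CLiP replicate 3 and 4 higher against it alone. In the NRF2 and metallothionein list Mt2 was lost without CLiP replicate 3, and 2 genes were called in each direction against that library alone. Of the 15 called genes named from the metabolic and stress lists, 12, 13 and 10 remained called without CLiP replicates 1, 2 and 3, and 8, 7 and 6 without 2-week replicates 1, 2 and 3.

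Cornified envelope genes, chosen for description after their values were seen, lie together in the epidermal differentiation complex on chromosome 3. The stretch from the first to the last gene of the Lce, Sprr, Ivl and Lor families (GRCm38, chr3:92080271-93019060) holds 66 genes of the table. Of these, 7 were tested and 5 were called, all lower in CLiPs (1.9% of all genes). These were Sprr1a, Ivl, Lce1g, Lce1h and Lce1i, the last with a ratio of 96.6 (interval 16.7 to 3880). Counts of the Lce1 genes may be shared among near-identical copies. The summed level of the 40 family members was 9.29, 15.3 and 14.5 CPM in CLiPs against 907, 1142 and 1635 CPM in 2-week hepatocytes, and 12 of them had a count in CLiPs against 21 in 2-week hepatocytes. The 3 CLiP libraries were alike here, replicate 3 included. The 5 envelope genes and Krt20 remained called whichever library was left out and against CLiP replicate 3 alone.

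Markers of other liver cells were present in some libraries. The mesothelial list summed to 451 to 562 CPM in 2-week hepatocytes and 266 to 603 CPM in CLiPs, and the macrophage and leukocyte list to 44.8 to 500 CPM and 191 to 318 CPM. Of 10 Kupffer cell markers (Clec4f, Vsig4, Cd5l, Marco, Lyz2, C1qa, C1qb, C1qc, Tyrobp and Adgre1), none passed the low-count filter. Their sum was 342, 450 and 8.97 CPM in 2-week hepatocytes and 0, 0.451 and 0 CPM in CLiPs, where 10, 8 and 10 of them were at 0, so that 2-week replicates 1 and 2 held macrophage transcripts that replicate 3 and the CLiP libraries hardly held. Of 23 macrophage and leukocyte markers, Csf1r and Cd14 were tested and both were called higher in CLiPs (3.11% of all genes). Without a low-count filter 21 of the markers were tested, with 2 called higher and 12 lower. In that fit 712 of 24807 genes were called higher and 439 lower. Csf1r stood at 128, 68.1 and 146 CPM against 17.9, 13.4 and 1.28 CPM, and Cd14 at 51.6, 243 and 43.4 CPM against 5.85, 15.8 and 12.8 CPM. The 10 Kupffer cell markers were at or near 0 in the CLiP libraries, whereas Csf1r and Cd14 were counted there. The cell source of Csf1r, Cd14, the chemokines and the interferon-stimulated genes in CLiPs was not tested. When a single library other than 2-week replicate 1 or 2 was left out, more markers passed the filter and 8 to 10 were called lower in CLiPs, and 11 were against CLiP replicate 3 alone. Csf1r was lost without 2-week replicate 2 and Cd14 without each 2-week library in turn and against CLiP replicate 3 alone.

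Of 20 stellate cell and fibroblast markers, 7 were tested and Col1a1 and Pdgfra were called, both lower (log2 fold changes of -6.12 and -3.96), while Ecm1 had -1.73 (edgeR FDR 0.098) and Col1a2 -3.60 (0.13). Over all genes tested, 1.9% were called lower and 3.11% higher. The summed level was 74.3, 29.5 and 128 CPM in CLiPs against 316, 312 and 173 CPM in 2-week hepatocytes, without overlap. The defining markers Lrat and Des were below the test's count limit. The number called lower was 6 without CLiP replicate 3, 3 without CLiP replicate 1 or 2 or 2-week replicate 3, 1 without 2-week replicate 2, in which case Pdgfra was lost, and 4 against CLiP replicate 3 alone. Of 17 endothelial markers, 2 were tested, Stab1 and Egfl7 (-0.90 and 0.95), and edgeR and DESeq2 called none, with none at an unadjusted p under 0.05. The summed endothelial level was 7.22 to 33.3 CPM over the 6 libraries. Of 13 mesothelial markers, 3 were tested. Cfi, which hepatocytes also express, was called higher, and Msln stood at 136, 170 and 85.3 CPM against 457, 421 and 318 CPM (-1.61 ± 0.36, edgeR FDR 0.036), under the fold threshold. Cfi was lost without CLiP replicate 3 or any single 2-week library. No erythroid marker had enough counts for the test. The Y-linked genes Ddx3y, Kdm5d, Uty and Eif2s3y had log2 fold changes of -2.44, -1.93, -2.13 and -1.51, none of them called, since CLiP replicate 3 held them and CLiP replicates 1 and 2 did not.

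The levels of the leading genes were set beside the other monolayer groups of the series, on a scale over all 49 libraries, without a test. Crp had a mean of 2304 CPM in fresh hepatocytes, 232 CPM after 1 day, 1.73 CPM after 1 week, 24.3 CPM after 2 weeks, 42.6 CPM in dediHeps (hepatocytes dedifferentiated in plain culture and passaged, n = 5) and 607 CPM in CLiPs. Habp2 went from 315 CPM in fresh hepatocytes to 4.4 CPM after 2 weeks and stood at 169 CPM in dediHeps and 227 CPM in CLiPs. The CLiP levels of these hepatocyte genes were therefore between those of fresh and 2-week hepatocytes. Ifit1 did not follow that order, with 16.7 CPM in fresh hepatocytes, 2.09 CPM after 2 weeks, 5.70 CPM in dediHeps and 110 CPM in CLiPs, nor did Ehf, with 0.332, 3.38, 2.33 and 165 CPM. The 4 genes shown that were lower in CLiPs had higher means after 2 weeks than in fresh hepatocytes. Sprr1a went from 0 CPM in fresh hepatocytes to 1464 CPM after 4 days and 887 CPM after 2 weeks, and stood at 103 CPM in dediHeps and 3.79 CPM in CLiPs. Fbln2 went from 0 to 785 CPM after 2 weeks and stood at 53.5 and 37.0 CPM in dediHeps and CLiPs. Etv4 went from 0 to 118 CPM and stood at 22.7 and 2.08 CPM, and Tnc went from 0.695 to 191 CPM and stood at 0.0965 and 1.89 CPM. For Tnc the means of dediHeps and CLiPs were both low.

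**Figure D5:**
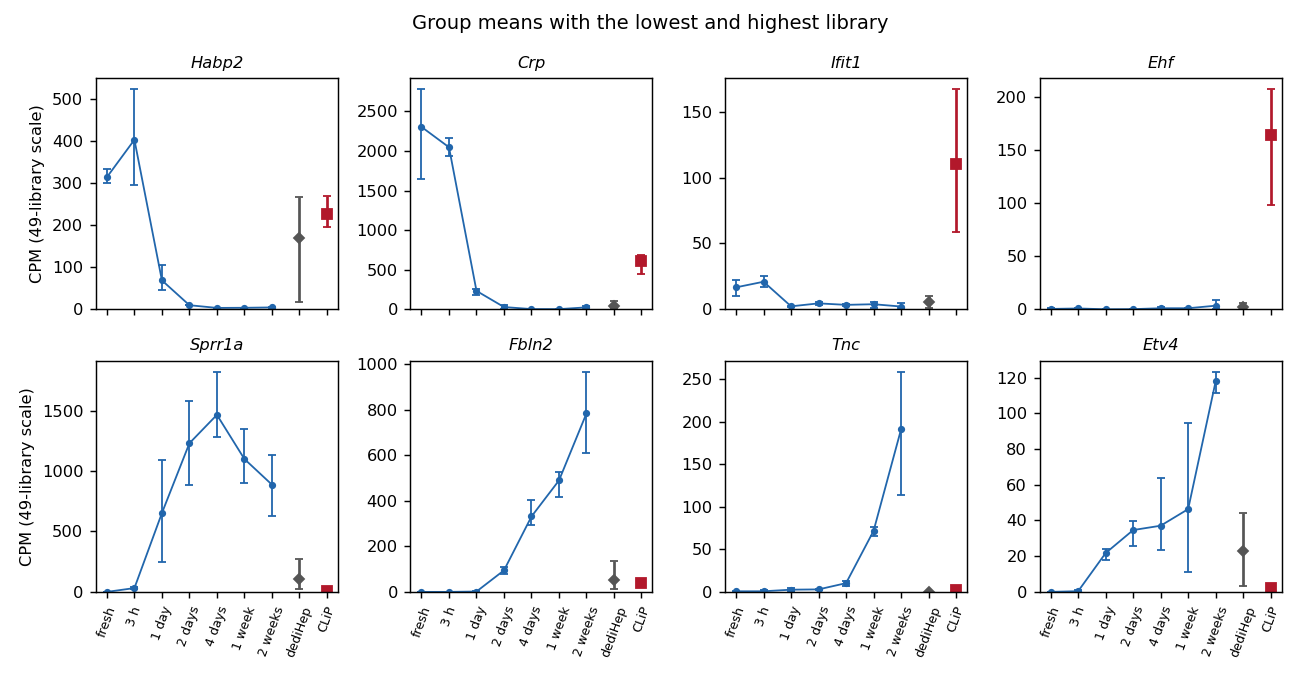
Mean CPM on the 49-library scale with the lowest and highest library as bars, for fresh hepatocytes, 6 times of plain culture (spacing not to scale), dediHeps (n = 5) and CLiPs (n = 3, as every other group). Habp2 was high in fresh cells, dediHeps and CLiPs, Crp in fresh cells and CLiPs, Ifit1 and Ehf in CLiPs, and Sprr1a, Fbln2, Tnc and Etv4 in plain culture.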

How the data were processed

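The authors deposited a single table of UMI counts per Ensembl gene for 49 libraries, not normalized and whole numbers throughout, of which 6 were used here for testing (3 CLiP, 3 2-week hepatocyte). RNA was extracted with ISOGEN II or RNeasy, and 3′ ends were sequenced by CEL-seq2. The submitters' processing notes name bcl2fastq 2.20, Bowtie2 2.3.1, HTSeq 0.6.0 and the build GRCm38. Every column was matched to a sample title and 0 columns were left out. Of 46078 identifiers, 45143 had a symbol in GENCODE M21, 56 shared one, and 21271 had no count in the 6 libraries.

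Counts were fitted in edgeR 4.0.16 (R 4.3.3) on the 6 libraries by the quasi-likelihood F-test, after TMM scaling and a low-count filter (filterByExpr, at least 10 counts, 15 in total), with Benjamini-Hochberg adjustment over the 10884 genes tested. The thresholds (FDR under 0.1, absolute log2 fold change over 2) are those of the study. The SE of a log2 fold change was taken as its size divided by the square root of F. Folds against a group with no count used a floor of 3 counts over the group, and those with 1 to 3 counts a 95% interval. Intervals and floors cover counting error only. Sums and shares per library were compared by an exact permutation test over samples, two-sided. Motifs were searched on both strands of 27025 RefSeq promoters (GRCm38.p6), and gene positions are those of GENCODE M21 on GRCm38. On simulated counts for 10575 genes with the same design, an FDR under 0.1 recovered 2 of 65 genes changed 2-fold, 46 of 70 changed 4-fold and 64 of 65 changed 8-fold, all with the right sign. The changed genes were drawn from those with a mean of at least 20 CPM, so recovery at lower levels was not simulated. The simulated libraries were independent and did not hold the shared differences of CLiP replicate 3.

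The gene lists, the comparison and the naming rule were chosen with earlier results of these data known. The rule names the 10 called genes with the smallest p and the 10 with the largest fold (mean of at least 20 CPM in the higher group) in each direction, the 4 members of each list with the smallest p, every called member, and the genes the study names for CLiPs. Some genes that the rule selects are not reported here, though list counts and sums include them. Ankrd1, Apoa1, B2m, Ccn2 as a Yap target, Csrp1, F12, Fos, H2-D1, Hamp, Ifi35, Irf9, Itih3, Nfkbia, Pmepa1, Smad7, Sox9 and Spp1 were added after their values were seen. Alternatives were RLE normalization, DESeq2 1.42.0, other filters and thresholds, all libraries in a single fit, a replicate block, a correction for shared UMIs, thinned counts, 1-week cultures as the control and leaving out each library. The comparison with the libraries without Xist was added after the counts were seen.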

Additional observations from a re-analysis of the deposited data

How the results depend on the processing

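The 546 calls (339 higher, 207 lower) became 1151 (712 and 439) without a low-count filter, 1172 (731 and 441) with a filter of 0.5 CPM in a library, 1015 (630 and 385) with all 49 libraries in a single fit, 895 (564 and 331) both with an absolute log2 fold change over 1 and at any fold, and 1194 (748 and 446) against CLiP replicate 3 alone, a comparison chosen after seeing the data. The last rests on a single CLiP library, whose spread is taken from the 2-week group. Leaving out each library in turn gave 241 to 981 calls (129 to 495 higher and 112 to 486 lower), the fewest without 2-week replicate 2 and the most without CLiP replicate 3, where 50.5% of the calls were higher, against 62.1% with all libraries and 69.5% (328 of 472) with 1-week cultures as the control. Of these 472, 274 were shared with the 546, and 61 of the genes named lost their call, among them Alb at 0.72, C1ra at 1.58, Birc3 at 0.21 and Hmga2 at -0.58. RLE normalization, DESeq2, an FDR under 0.05, thinned counts and the UMI correction kept each count within 1.5 times. The libraries of both groups carry the numbers 1 to 3, but the deviations of same-numbered libraries correlated at 0.02, -0.17 and -0.06 over 10884 genes, so the numbers do not pair the samples. With the replicate number as a block, 493 genes were called (288 higher, 205 lower), of which 470 were shared with the fit without the pairing. Of the genes named, Apoa1 and F12 turned to -1.76 and -2.04 with the block and ran from -3.45 to 0.91 and from -4.57 to 3.96 when each library was left out, as Serpina1c did from -0.45 to 1.41, the lowest in each case without CLiP replicate 3. Cdh1, whose difference is close to 0, was at 0.014 without a filter and 0.015 with the 0.5 CPM filter, 0.20 with the UMI correction and -0.25 to 0.25 over the fits without 1 CLiP or 2-week library. Against CLiP replicate 3 alone, Hnf4a was at 0.42, Prom1 at -0.027, Vegfa at -0.17, Eif2s3y at 0.11 and Stab1 at 0.60. Prom1 ran from -0.19 to 0.76 when each library was left out. With 1-week cultures, Apoa1 was at -0.23, Msln at 0.82, Ocln at -0.025, Hes1 at -0.37 and Srebf1 at -0.38. The cause of these changes was not tested. In CLiP replicate 2, 234 genes were over 50% of the UMI ceiling, where the true level would be at least 1.39 times the observed one, and 3 counts in the shallowest library are 3.48 CPM, so lower levels could not be compared.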
